A study of Mus musculus with 15 samples.

Results

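The 49 interferon-stimulated genes examined here are genes that cells are known to switch on in answer to interferon. They were taken as a list of gene symbols, 3 sensors of viral RNA, 4 transcription factors and 42 effectors and other induced genes, from a table of 25382 genes. All 49 symbols were in the table, and all 49 were among the 15190 genes with enough reads to be tested. The libraries hold bulk mRNA of primary tumours, dissociated after removal, that grew from MDA-MB-231 cells in Nod/Skid mice, as the strain label spells it. This line comes from a human breast cancer without hormone or HER2 receptors, and all groups used cells marked GFP+ Luc+. Each tumour is labelled by the adhesion class of its cells under fluid shear. The weakly adherent class was taken at 10 dyn per square centimetre and has 6 libraries. The strongly adherent class was taken at 50 dyn per square centimetre and has 4 libraries, and the unsorted class saw no shear and has 5 libraries.

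Each sample title also carries a number after the word Group: 4, 5, 6, 7-8, 9 or 10. Neither its meaning nor whether the libraries came from separate animals is given, so a p-value measures only the spread between these libraries. In the adhesion contrasts this is the spread within an adhesion class. In the title number contrasts it is the spread between libraries that share a number, with adhesion class fitted. The spread between title numbers does not enter those p-values. Libraries are named here by adhesion class and title number. The 3 libraries of title number 6 were already known to stand apart from the other 12 over many genes, so their comparison is a description of those libraries. Total counts ran from 30372619 to 45434799 per library, a depth at which all 49 genes had reads in all 12 libraries outside title number 6.

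Interferons are secreted proteins that bind receptors on the cell surface. The receptor-bound JAK kinases then phosphorylate STAT proteins such as STAT2, which joins IRF9 in a complex that switches on genes that carry an interferon-stimulated response element. Many of these genes encode proteins that block viruses, and others feed back on the pathway, as the RNA sensors, IRF7 and the inhibitor USP18 do. Breast cancer cells can keep part of this programme on without infection.

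The main contrast in these genes ran between title number 6 and the other title numbers. Of the 49 genes, 44 were lower in title number 6 and 1 was higher, at an adjusted p under 0.05 in edgeR's quasi-likelihood test, adjusted by Benjamini and Hochberg's method over the whole table. Over all 15190 genes 27.9% were called, 16.4% lower and 11.6% higher. The median log2 fold change was -1.29 over the 49 genes, against 0.01 over all genes. The 49 genes together took 0.225% to 0.329% of all counts in the title number 6 libraries, against 0.424% to 1.04% in the other 12. Without strongly adherent 6, 38 of the 49 genes were called lower, and BST2, DDX58, HERC5, OASL, TRIM14 and UBE2L6 lost their call. In bulk samples, fewer cells of a type and less RNA per cell cannot be told apart.

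**Figure D1:**
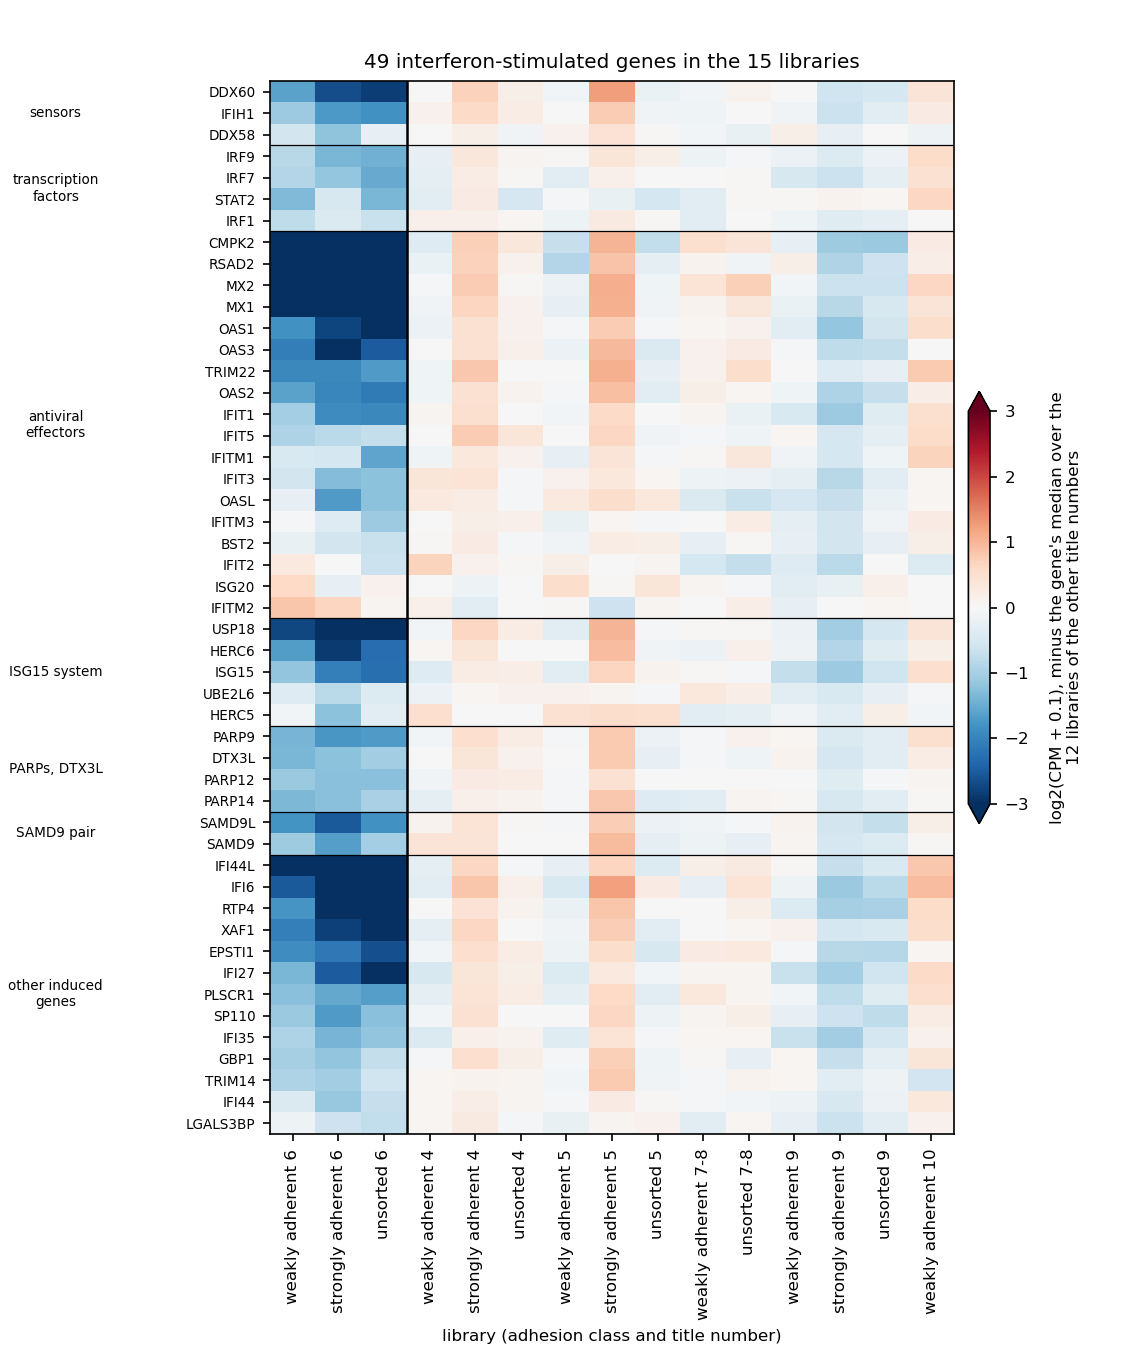
Level of each of the 49 genes (down the page, by role) in each of the 15 libraries (across), as log2(CPM + 0.1) minus the gene's median over the 12 libraries outside title number 6; CPM is the read count scaled to library size and colours stop at 3 in either direction. The 3 columns left of the line, title number 6, are blue in most genes, while IFITM2, ISG20 and IFIT2 near the foot of the antiviral block are pale or red there.

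All 3 sensors of viral RNA were lower in title number 6. IFIH1, the sensor MDA5 of long double-stranded RNA, had 18.9, 12.1 and 11.3 CPM in weakly adherent 6, strongly adherent 6 and unsorted 6, against a lowest value of 25.5, a median of 40.1 and a highest value of 67.9 CPM in the other 12. CPM values are counts scaled to library size and composition and are set side by side only within a gene, since no gene length was used. All 3 libraries of title number 6 lay under all 12 others for IFIH1, and its log2 fold change was -1.60 ± 0.22 (SE; adjusted p = 0.0005624). DDX60, a helicase that aids RNA sensing, had 33.2, 16.0 and 14.2 CPM in weakly adherent 6, strongly adherent 6 and unsorted 6, against 66.6, 101 and 240 CPM as the lowest, median and highest of the other 12. It showed no overlap either and had the steepest fall of these 7 genes, -2.44 ± 0.38 (adjusted p = 0.00197). DDX58, the sensor RIG-I, had 88.2, 55.6 and 109 CPM in weakly adherent 6, strongly adherent 6 and unsorted 6, against 109, 129 and 175 CPM as the lowest, median and highest of the others. Its highest title number 6 library came close to the lowest of the others, and the log2 fold change was -0.59 ± 0.18 (adjusted p = 0.02784). The DDX58 call was lost without strongly adherent 6, at -0.34 (adjusted p = 0.1624), and also without weakly adherent 6.

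The 4 factors that carry the signal to the genes were lower too. IRF9, the DNA-binding partner of STAT2, had 46.2, 31.7 and 30.5 CPM in weakly adherent 6, strongly adherent 6 and unsorted 6, against 61.5, 82.4 and 121 CPM as the lowest, median and highest of the other 12 (log2 fold change -1.29 ± 0.17). IRF7, which amplifies interferon production, had 45.3, 37.3 and 29.2 CPM in the same 3 libraries, against 53.5, 83.2 and 115 CPM (-1.17 ± 0.16). Neither gene showed an overlap. STAT2 did: strongly adherent 6 had 71.3 CPM and the other libraries of title number 6 had 40.2 (weakly adherent) and 38.6 CPM (unsorted), against 69.1, 100 and 155 CPM as the lowest, median and highest of the 12 (-1.12 ± 0.17). IRF1, a factor induced most strongly by interferon gamma, had 32.0, 40.1 and 33.8 CPM in weakly adherent 6, strongly adherent 6 and unsorted 6, against 42.1, 53.9 and 65.1 CPM (-0.59 ± 0.12). The adjusted p of these 4 factors lay between 0.0003438 and 0.003887 in edgeR. All 7 sensors and factors were thus called lower, with a median log2 fold change of -1.17. The DDX58 call held only with strongly and weakly adherent 6 both included. Of the 42 effectors, 37 were called lower, and all 42 had a median of -1.49 and a wider range of -6.20 to 0.63.

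The antiviral effectors held both the deepest falls and the exceptions. Of these 18 genes, 14 were lower, 1 was higher and 3 did not pass the threshold. RSAD2, or viperin, an enzyme that makes a chain-terminating nucleotide, had 1.11, 0.348 and 0.0509 CPM in weakly adherent 6, strongly adherent 6 and unsorted 6, against 12.8, 24.2 and 44.1 CPM as the lowest, median and highest of the other 12. In counts this was 36, 13 and 2 reads, and the log2 fold change was -5.72 ± 0.73 (adjusted p = 0.001023). CMPK2, a mitochondrial nucleotide kinase that neighbours RSAD2 in the genome, had 0.706, 0 and 0.127 CPM in the same order, from 23, 0 and 5 reads, against 8.60, 18.9 and 37.7 CPM. Its fitted log2 fold change of -6.20 ± 0.86 (adjusted p = 0.001446) draws in part on a library without reads, where up to 3 counts cannot be told from 0. Without that library, strongly adherent 6, the value was -5.42, and without weakly adherent 6 it was -8.31. MX2, a GTPase that blocks viral capsids at the nucleus, had 6.27, 1.12 and 0.763 CPM in weakly adherent 6, strongly adherent 6 and unsorted 6, against 42.4, 66.7 and 142 CPM (-5.00 ± 0.72, adjusted p = 0.001988). MX1, a related GTPase, had 29.0, 5.51 and 4.78 CPM in those libraries, against 151, 268 and 560 CPM (-4.60 ± 0.72, adjusted p = 0.002893). None of these 4 genes had a title number 6 library within the range of the others, and in all 4 weakly adherent 6 was the highest of the 3.

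**Figure D2:**
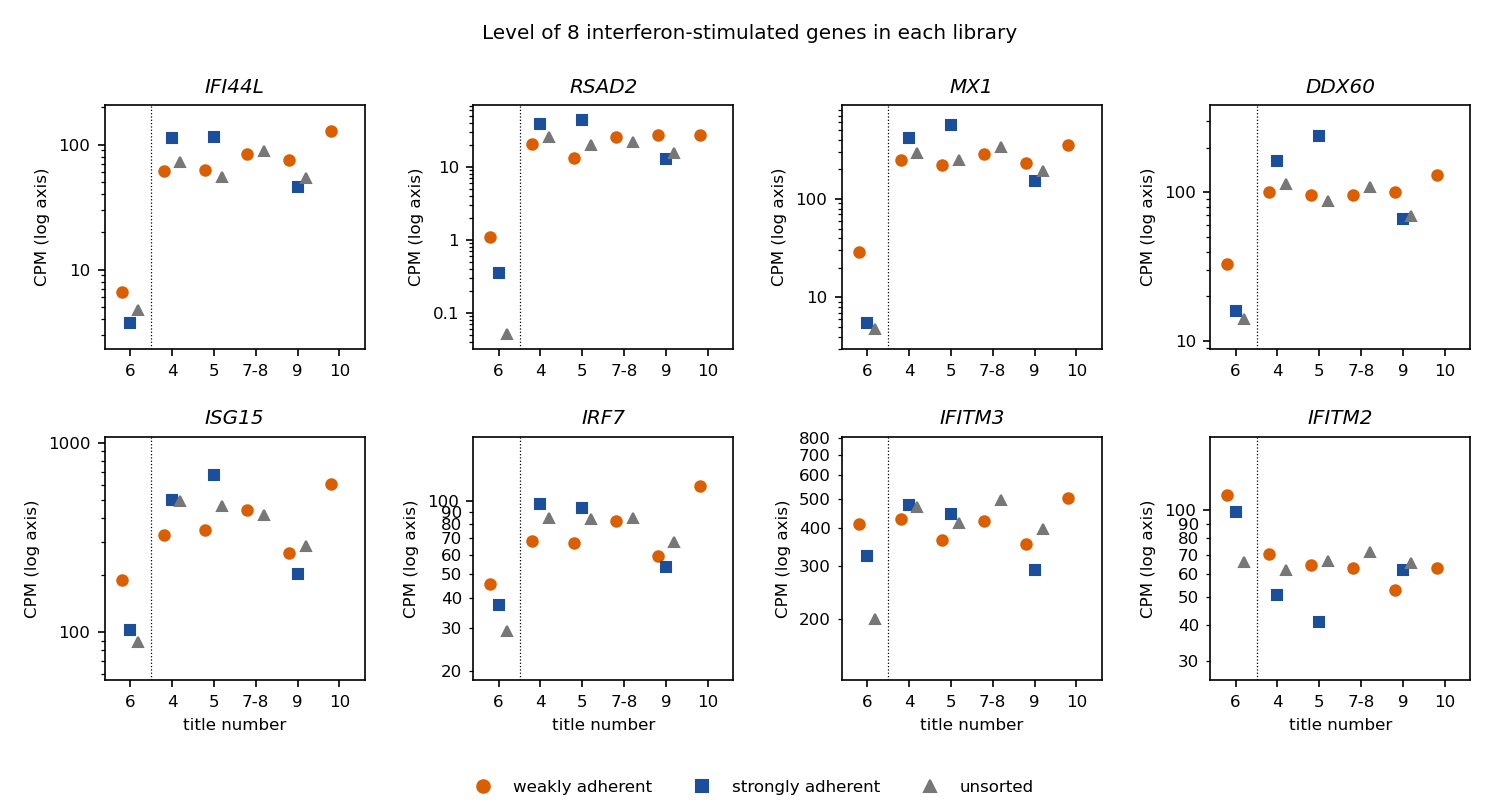
CPM on a log axis of 8 of the genes by title number, 1 point per library, with a dotted line right of title number 6. IFI44L, RSAD2, MX1 and DDX60 sit far below the other libraries in title number 6, ISG15 and IRF7 sit below by less, IFITM3 overlaps them, and IFITM2 is as high as the others or higher.

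The oligoadenylate synthetases, which make the messenger that activates RNase L, were all lower: OAS1 by -2.73 ± 0.44, OAS3 by -2.55 ± 0.37, OAS2 by -1.92 ± 0.26 and the enzymatically inactive OASL by -0.86 ± 0.22 on the log2 scale. TRIM22, a ubiquitin ligase, was lower by -2.21 ± 0.27. Among the IFIT proteins, which bind foreign RNA ends, IFIT1 (-1.59 ± 0.25), IFIT5 (-1.01 ± 0.18) and IFIT3 (-0.95 ± 0.16) were lower, and IFIT2 was not. IFIT2 had 103, 84.6 and 53.6 CPM in weakly adherent 6, strongly adherent 6 and unsorted 6, against 48.1, 83.6 and 133 CPM as the lowest, median and highest of the other 12. All 3 libraries lay inside the range of the others, and the log2 fold change was 0.18 with a 95% interval of -0.21 to 0.58. ISG20, an exonuclease, was at 0.19 with an interval of -0.10 to 0.49.

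BST2, or tetherin, which holds budding viruses at the cell surface, had 264, 211 and 196 CPM in weakly adherent 6, strongly adherent 6 and unsorted 6, against 212, 310 and 366 CPM as the lowest, median and highest of the other 12. Its fall was the smallest that passed the threshold, -0.46 ± 0.14 (adjusted p = 0.02557). The IFITM proteins, which hinder viral entry through membranes, split. IFITM1 was lower (-0.97 ± 0.23), and IFITM3 did not pass the threshold at 414, 325 and 201 CPM in weakly adherent 6, strongly adherent 6 and unsorted 6, against 292, 427 and 503 CPM (-0.47 ± 0.18, adjusted p = 0.0744). IFITM2 had 113, 99.0 and 66.4 CPM in those 3 libraries, against 41.0, 63.0 and 71.8 CPM as the lowest, median and highest of the 12. It was the only member called higher, by 0.63 ± 0.17 (adjusted p = 0.0167), and the call was lost without weakly adherent 6 or without strongly adherent 6. The IFITM genes have near-identical copies, so 50-base reads may be shared between them and their single-gene values are uncertain.

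ISG15 is a ubiquitin-like protein that is attached to other proteins. All 5 genes of its system were lower. ISG15 itself had 188, 103 and 89.0 CPM in weakly adherent 6, strongly adherent 6 and unsorted 6, against 202, 429 and 672 CPM as the lowest, median and highest of the other 12 (-1.75 ± 0.28). USP18, the protease that removes ISG15 and also shuts the receptor off, was lower by -3.49 ± 0.38. UBE2L6, the conjugating enzyme, had 66.6, 49.3 and 64.8 CPM in weakly adherent 6, strongly adherent 6 and unsorted 6, against 62.9, 86.9 and 108 CPM (-0.51 ± 0.11). Of the ligases, HERC6 was lower by -2.24 ± 0.33. HERC5, the main ISG15 ligase in human cells, had 47.1, 21.2 and 40.2 CPM, against 39.3, 49.8 and 71.6 CPM (-0.49 ± 0.17, adjusted p = 0.04882). The HERC5 call was the least stable of all and was lost in 12 of 20 other settings, with an adjusted p of up to 0.281.

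PARP9 and its partner DTX3L, which modify histones and viral proteins, were lower by -1.78 ± 0.21 and -1.29 ± 0.20. PARP12, a mono-ADP-ribosyltransferase, had 40.8, 36.6 and 36.5 CPM in weakly adherent 6, strongly adherent 6 and unsorted 6, against 68.3, 87.7 and 121 CPM as the lowest, median and highest of the other 12 (-1.27 ± 0.14). PARP14, of the same enzyme family, had 30.8, 33.0 and 39.6 CPM, against 56.4, 78.4 and 138 CPM (-1.20 ± 0.23). None of these 4 genes overlapped with the other libraries. SAMD9 and SAMD9L are restriction factors of poxviruses. SAMD9L had 15.7, 9.47 and 15.6 CPM in the 3 libraries, against 33.2, 55.0 and 91.9 CPM (-2.03 ± 0.26), and SAMD9 had 44.5, 29.6 and 45.9 CPM, against 66.3, 93.5 and 180 CPM (-1.23 ± 0.25). The adjusted p of these 6 genes ran up to 0.005207.

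Of the 13 other induced genes, 12 were lower and 1 did not pass. IFI44L, whose product dampens the interferon response, had 6.70, 3.72 and 4.73 CPM in weakly adherent 6, strongly adherent 6 and unsorted 6, against 45.8, 74.2 and 129 CPM as the lowest, median and highest of the other 12. Its 3 values lay closer together than those of MX1 or RSAD2, and its log2 fold change of -4.06 ± 0.34 had the smallest adjusted p of the 49 genes, 7.224e-05. IFI27, a small membrane protein, had 238, 108 and 75.1 CPM, against 303, 611 and 904 CPM (-2.13 ± 0.36). IFI6, an endoplasmic reticulum protein that blocks flaviviruses, was lower by -3.86 ± 0.71, RTP4 by -2.81 ± 0.42 and XAF1, an antagonist of the apoptosis inhibitor XIAP, by -2.71 ± 0.29. EPSTI1, PLSCR1, SP110, IFI35, GBP1, TRIM14 and IFI44 fell by values between -2.24 and -0.75. LGALS3BP, a secreted galectin-binding glycoprotein, had 664, 480 and 444 CPM in weakly adherent 6, strongly adherent 6 and unsorted 6, against 477, 742 and 888 CPM (-0.42 ± 0.16, adjusted p = 0.06302).

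**Figure D3:**
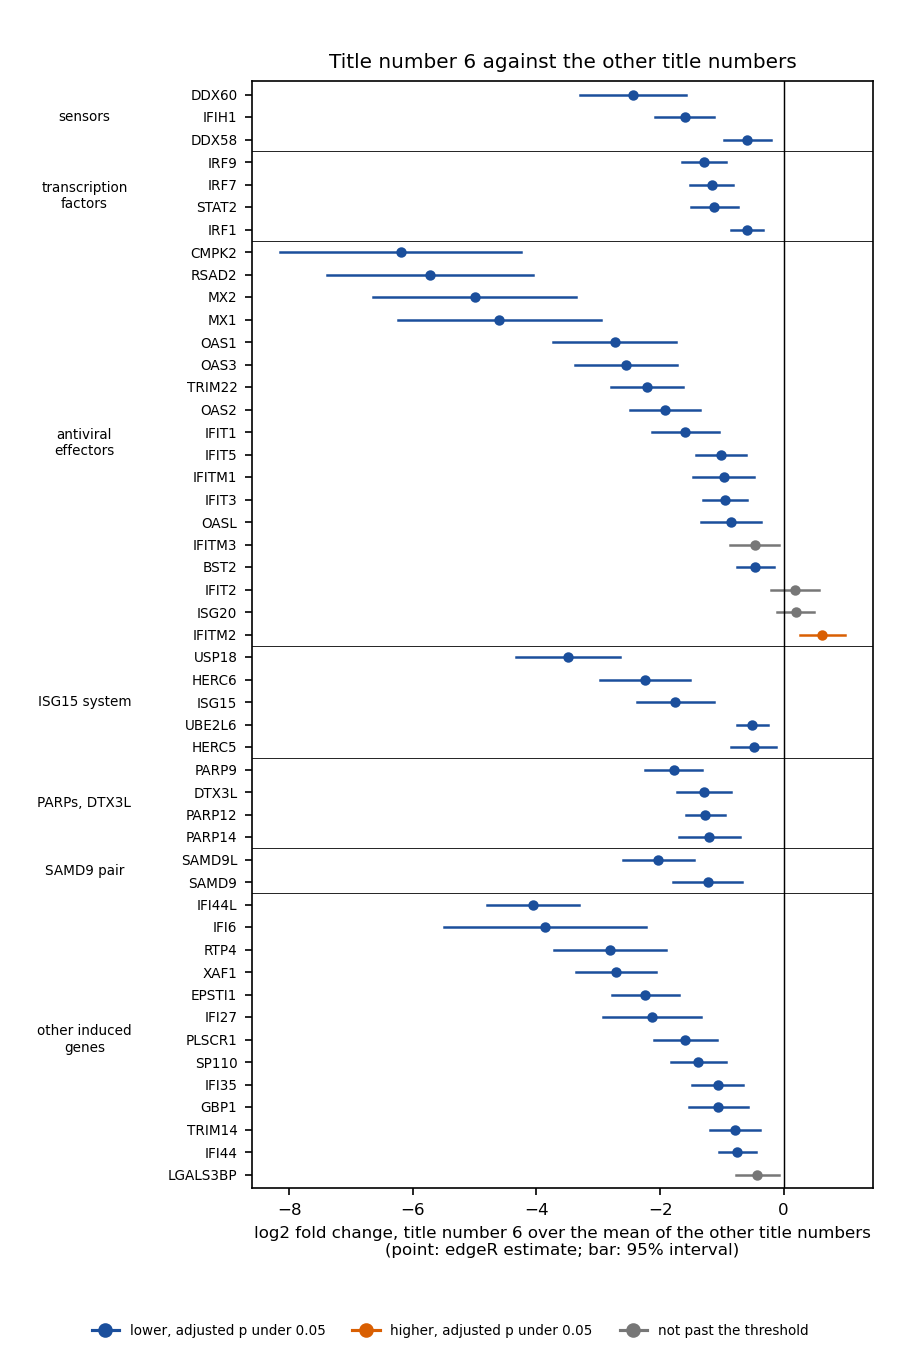
log2 fold change of title number 6 over the mean of the other title numbers (horizontal) for the 49 genes by role (down the page), as edgeR's estimate with its 95% interval. Most points lie left of 0, from -6.20 for CMPK2 to -0.46 for BST2 among those past the threshold; IFITM2 at 0.63 is the only one called to the right.

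In 34 of the 49 genes all 3 title number 6 libraries lay under all 12 others, and in no gene did they lie above. Over all genes tested, 10.4% lay under in this way and 5.63% above. The 15 genes with an overlap were STAT2, IFIT1, IFIT2, IFIT3, IFITM1, IFITM2, IFITM3, OASL, ISG20, BST2, UBE2L6, HERC5, IFI35, IFI44 and LGALS3BP. The 3 libraries also differed among themselves. Weakly adherent 6 was the highest of the 3 in 39 of the 49 genes, and 8 genes were at least 2-fold higher there than in both strongly adherent 6 and unsorted 6. In log2 CPM it lay above strongly adherent 6 in 44 of the 49 genes and above unsorted 6 in 40. Over all genes tested these shares were 48.7% and 50.2%. The mean log2 CPM of the 49 genes was 5.07 in weakly adherent 6, 4.34 in strongly adherent 6 and 4.35 in unsorted 6, against 5.74, 6.35 and 6.97 as the lowest, median and highest of the other 12.

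Other genes of the pathway were read in the same contrast, against the 27.9% called over all genes. Of 21 interferon ligand genes in the table, 17 had no read in any library, among them IFNB1 and IFNG. Symbols and build are human, so interferon transcripts of the mouse host may go uncounted. IFNL1, a type III interferon, was the only ligand with enough reads to test. It had 188 reads over all libraries and reached 1.03 CPM in strongly adherent 5, from 49 reads, and its log2 fold change in title number 6 was -2.56 ± 0.99 (adjusted p = 0.0705). Of 9 receptor and JAK kinase genes, 3 were lower and 1 was higher in title number 6. The receptor chains IFNLR1 (-1.74 ± 0.28), IFNAR2 (-0.81 ± 0.17) and IL10RB (-0.39 ± 0.13) were lower. TYK2, a JAK kinase, was higher by 0.42 ± 0.14, while IFNAR1 was at -0.04 ± 0.14 and JAK1 at -0.03 ± 0.11.

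Of 22 nucleic acid sensing genes outside the members, 8 were lower and 2 were higher in title number 6. MYD88, an adaptor of Toll-like receptors, was lower by -0.48 ± 0.11, and IRF3, the factor that STING and RIG-I signalling activate, by -0.51 ± 0.11. TMEM173, the adaptor STING, was higher by 0.47 ± 0.16 and RNASEH2A, a subunit of RNase H2, by 0.39 ± 0.13. Of 45 other interferon-induced genes tested, 25 were lower and none was higher, with a median log2 fold change of -0.75. They included LY6E (-2.56 ± 0.41), which had 142, 57.9 and 40.1 CPM in weakly adherent 6, strongly adherent 6 and unsorted 6, against 277, 409 and 622 CPM. ADAR, the RNA-editing deaminase, was lower by -1.02 ± 0.17, the helicase gene HELZ2 by -1.46 ± 0.17 and ZNFX1 by -0.75 ± 0.13. Of 11 feedback inhibitors, PTPN6 (-1.60 ± 0.24) and CISH (-1.42 ± 0.25) were lower and PTPN2 was higher by 0.38 ± 0.12, a share near that of all genes.

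Markers of other cell types and states also differed in title number 6, and their part in the result was not tested. Since symbols and build are human, marker transcripts of mouse host cells may go uncounted. The share called over all genes was 27.9%, 16.4% lower and 11.6% higher. Of 8 genes of the epithelial state, 7 were lower, with a summed level of 1008 to 1302 CPM in title number 6 against 1723 to 4103 CPM in the other 12. CDH1 had 5.56, 0.267 and 0.407 CPM in weakly adherent 6, strongly adherent 6 and unsorted 6, against 53.1 to 549 CPM, and OVOL1 was at 0 in strongly adherent 6 and unsorted 6. Of 15 striated muscle genes, 6 were higher and 1 was lower, with sums of 170 to 1091 CPM against 6.79 to 2811 CPM. Of 8 leukocyte markers tested out of 16, 2 were higher and 4 were lower, with sums of 205 to 359 CPM against 137 to 195 CPM, and TYROBP, IL3RA and CLEC4C had no read in any library. The highest of these sums, in weakly adherent 6, was mostly CD68 (193 CPM) and LAPTM5 (153 CPM). PTPRC reached at most 1.83 CPM in any library, and the median log2 fold change of the 8 tested markers was -0.89. Of 7 endothelial markers tested out of 9, 3 were higher and 1 was lower, with sums of 25.4 to 34.8 CPM against 10.0 to 24.5 CPM. Of 9 fibroblast markers tested out of 11, 1 was higher and 5 were lower, with sums of 530 to 853 CPM against 751 to 1493 CPM.

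No other title number gave a call among the 49 genes. Each contrast sets 1 number against the mean of the other 5 and so has the low title number 6 on its other side, and the contrasts share libraries. The median log2 fold change of the 49 genes was 0.40 for number 4, 0.45 for number 5, 0.29 for number 7-8, -0.16 for number 9 and 0.53 for number 10, which is a single library whose spread is assumed to be that of the rest. In edgeR 0 of 15190 genes were called for numbers 4, 5 and 10 (0%), 10 (0.0658%) for number 7-8, all higher, and 3 (0.0197%) for number 9, 2 higher (0.0132%) and 1 lower (0.00658%). At an unadjusted p under 0.05 there were 19, 25, 9, 5 and 13 of the 49 genes for numbers 4, 5, 7-8, 9 and 10, against 836, 1376, 814, 1519 and 2175 of all 15190 genes. DESeq2 was not run on these 5 contrasts.

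Outside title number 6 the level of the 49 genes still varied from library to library. The median SD of log2 CPM over the 12 libraries was 0.397 for the 49 genes, 0.418 for the 42 effectors and 0.316 for the 7 sensors and factors, against 0.249 over all genes tested. In 37 of the 49 genes the highest of the 12 libraries was at least 2-fold above the lowest, and IFI6 had the widest range, 5.08-fold. Strongly adherent 5 was the highest of the 12 in 33 genes and weakly adherent 10 in 8. Strongly adherent 9 was the lowest in 40 genes. The 2 ends of the range thus belong to the same adhesion class. Matching counts over all genes are not given here, so whether these counts are particular to the 49 genes was not tested.

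**Figure D4:**
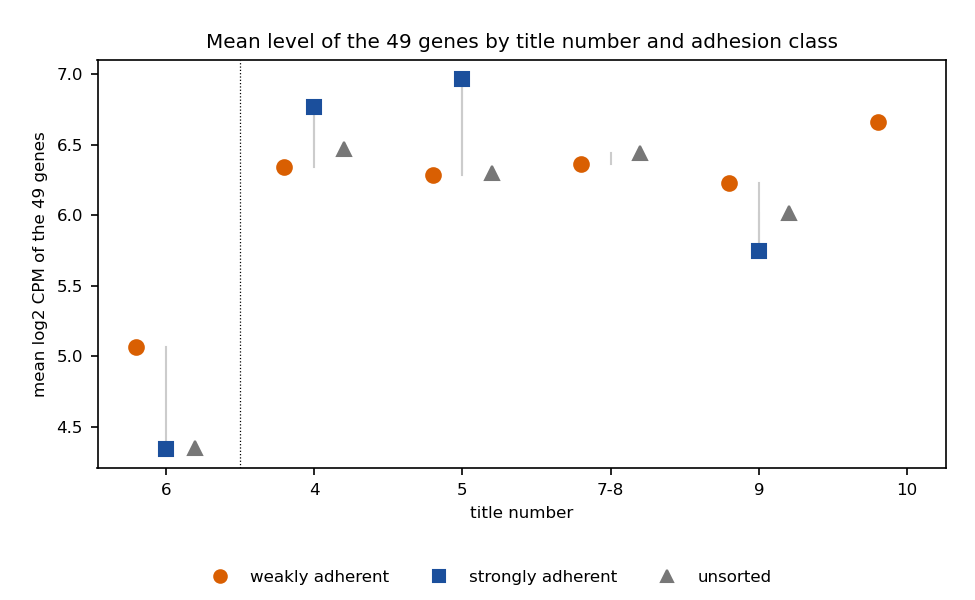
Mean log2 CPM of the 49 genes in each library (vertical) by title number (horizontal), with adhesion class by colour and symbol and a grey line spanning each title number. Title number 6 lies lowest at 4.34 to 5.07, and among the others strongly adherent 5 is highest at 6.97 and strongly adherent 9 lowest at 5.74.

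The 12 libraries moved many of the genes together. Over the 1176 pairs of genes the median Pearson correlation of log2 CPM was 0.75 and the median Spearman correlation 0.70, and 73.9% of pairs lay over 0.5. This is a description over 12 libraries that share title numbers and sequencing, with no test. No matching value for pairs of other genes is given here. Without strongly adherent 5 and strongly adherent 9, the highest and lowest of the 12, the median Pearson correlation was 0.59, an alternative chosen after seeing the data. USP18 followed the rest most closely, with a median correlation of 0.89 with the other 48 genes, then MX1 with 0.88 and OAS1 with 0.87. MX1 and USP18 correlated at 0.98, and PARP9 and DTX3L at 0.95.

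A few genes did not follow. IFITM2 ran against the others, with a median correlation of -0.52, and correlated at -0.79 with DDX58. ISG20 (-0.02), STAT2 (0.02), IFIT2 (0.20) and HERC5 (0.23) had little in common with most members. IFIT2 and HERC5 did correlate with each other at 0.84, HERC5 with OASL at 0.87, and IFIT2 with OASL at 0.80. IFI27 and IRF7 correlated at 0.98, and ISG15 with IFI35 at 0.98. Of the 7 sensors and factors, DDX58 (0.48) and STAT2 had a median correlation under 0.5, as had 6 of the 42 effectors.

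**Figure D5:**
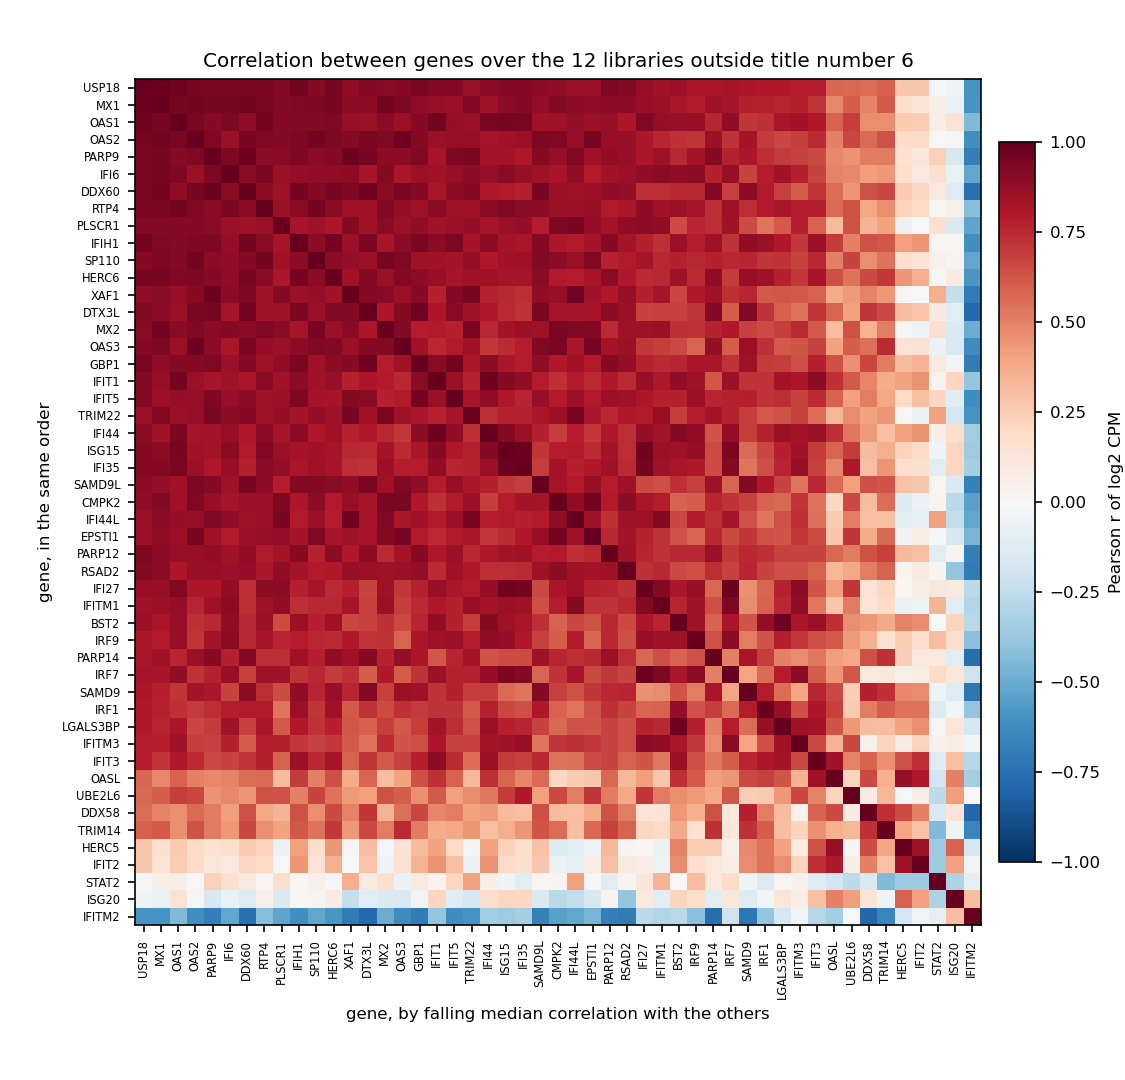
Pearson correlation of log2 CPM between each pair of the 49 genes over the 12 libraries outside title number 6, genes ordered by falling median correlation on both axes. Most of the square is red, HERC5, IFIT2, STAT2 and ISG20 form a pale margin, and IFITM2 in the last place is blue.

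Among the genes outside the list, those with a mean of at least 1 CPM were ranked by their correlation with the mean log2 CPM of the 49 genes over the 12 libraries. Over all 15141 tested genes outside the list, with no minimum CPM, the median correlation was 0.0045 and 49 genes (0.324%) lay over 0.9. Of the first 10 in the ranking, 9 are named here: THUMPD3 (0.97), CCDC122 (0.94), HELZ2 (0.94), TSPAN13 (0.93), FAAH2 (0.93), TBK1 (0.93), TINAGL1 (0.93), PLS1 (0.93) and IL22RA1 (0.93). In title number 6, which the ranking did not use, HELZ2 (-1.46 ± 0.17), TSPAN13 (-1.65 ± 0.34), FAAH2 (-3.18 ± 0.93), TINAGL1 (-1.73 ± 0.34) and IL22RA1 (-3.09 ± 0.61) were lower. THUMPD3 was at -0.03 ± 0.12 there, with an adjusted p of 0.868. CCDC122 (-0.56 ± 0.28), TBK1 (-0.42 ± 0.15) and PLS1 (-0.36 ± 0.17) did not pass the threshold either. Over all genes tested 16.4% were called lower in title number 6.

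The adhesion classes, the comparison the series was built for, were then compared without title number 6, in 5 weakly adherent, 3 strongly adherent and 4 unsorted libraries. The 3 contrasts share libraries. No member passed the threshold in any of them, and edgeR called 0 of 15255 genes (0%) in each. At an unadjusted p under 0.05 edgeR had 815 genes and 1 member for weakly adherent against strongly adherent, 426 genes and 0 members for weakly adherent against unsorted, and 1422 genes and 3 members for strongly adherent against unsorted. DESeq2 called 3 genes in the first contrast, none of them a member, and 0 in the others.

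Between weakly and strongly adherent tumours the median log2 fold change of the 49 genes was -0.19, against 0.00 over all genes, and 42 of the 49 values were negative. Without strongly adherent 5 the median was 0.06, and without strongly adherent 9 it was -0.51. DDX60 had the most negative value, with 105 ± 14.9 CPM in weakly adherent tumours (SD, n = 5), against 157 ± 87.0 CPM for the strongly adherent class (SD, n = 3). Its log2 fold change of -0.57 had a 95% interval of -1.23 to 0.08. IFI44L averaged 82.7 ± 27.7 CPM in the weakly adherent class, against 91.8 ± 39.9 CPM in the strongly adherent, with a log2 fold change of -0.14 and an interval of -0.83 to 0.54. RSAD2 averaged 23.0 ± 6.11 CPM in the weakly adherent class, against 32.0 ± 16.8 CPM in the strongly adherent, at -0.47 with an interval of -1.21 to 0.27. The classes overlapped in all 3 genes, since the strongly adherent libraries reached below and above the weakly adherent ones, apart from weakly adherent 10 in IFI44L.

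The direction differed between title numbers. The mean log2 CPM of the 49 genes was lower in the weakly than in the strongly adherent library of number 4 (6.34 against 6.77, a difference of -0.43) and of number 5 (6.29 against 6.97, -0.68). It was higher in the weakly adherent library of number 9 (6.23 against 5.74, 0.49) and of number 6 (5.07 against 4.34, 0.73). Of the 49 genes, 6, 5, 46 and 44 were higher in the weakly adherent library of numbers 4, 5, 9 and 6. Over all genes tested, 47.2%, 50.3%, 49.2% and 48.7% were higher in the same pairs. Each of these is a pair of single libraries, so the difference between title numbers was not tested.

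Between weakly adherent and unsorted tumours the median log2 fold change was 0.09, against 0.01 over all genes, with 35 of 49 values positive and a range of -0.13 for IFI35 to 0.32 for SAMD9. Between strongly adherent and unsorted tumours the median was 0.30, against 0.01, with 42 of 49 values positive. DDX60 was at 0.73 (95% interval 0.03 to 1.42), SAMD9 at 0.62 (0.09 to 1.15) and IFITM2 at -0.38 (-0.67 to -0.09), and none passed the adjustment (adjusted p = 0.5358 for each). SAMD9 had 122, 180 and 66.3 CPM in strongly adherent 4, 5 and 9, against 94.4, 75.9, 79.2 and 70.0 CPM in unsorted 4, 5, 7-8 and 9. Strongly adherent 9 lay under every unsorted library and the other strongly adherent libraries above every one. Without strongly adherent 5 the median over the 49 genes was 0.02, and without strongly adherent 9 it was 0.65.

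Strongly adherent 5 also stood apart in other genes. Its 15 striated muscle genes summed to 2811 CPM, against a median of 11.9 CPM over the 12 libraries, with ACTA1 at 864 CPM, and its epithelial genes summed to 4103 CPM, the highest of all libraries, with CDH1 at 549 CPM. Their part in its high level of interferon-stimulated genes was not tested.

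With title number 6 included the classes gave no call either. The median log2 fold change of the 49 genes was -0.06 for weakly against strongly adherent, 0.15 for weakly adherent against unsorted and 0.24 for strongly adherent against unsorted, with 0 of 15190 genes (0%) called by edgeR or DESeq2 in each. At an unadjusted p under 0.05 edgeR had 366, 81 and 572 genes in the 3 contrasts and no member. The 95% intervals were wide there: RSAD2 was at -0.32 for weakly against strongly adherent, with an interval of -2.71 to 2.08.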

How the data were processed

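Per the labels' protocols, libraries were made with the Illumina TruSeq stranded kit and sequenced as 50-base single-end reads. The submitters' processing notes name STAR, HTSeq, cutadapt, FastQC and DESeq2, and build hg19. Tool versions and the strand setting of the counting are not given in the sources used here. Although the organism label says mouse, symbols and build are human, so host reads that align to human genes may be included. The authors deposited raw counts for 25382 genes in 15 libraries. The deposited log2 values equal log2 of the count divided by a DESeq2 size factor, plus 1, to within 5.15e-14, and served 1 alternative.

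Counts were fitted in R 4.3.3 with edgeR 4.0.16 (TMM, filterByExpr by adhesion class, robust quasi-likelihood), leaving 15190 genes with 15 libraries and 15255 with 12. Tests were two-sided, with p-values adjusted by Benjamini and Hochberg's method over every gene in the fit, and the threshold was 0.05. Title numbers were compared with adhesion class in the fit, each against the mean of the other 5. The SE is the absolute log2 fold change over the square root of F, and intervals (95%) use the t distribution, so both are approximate. The biological coefficient of variation was 33.6%. CPM are TMM-scaled, and log2 CPM used a prior count of 2, which did not enter the fits. Fitted fold changes of genes near 0 depend on edgeR's own default prior count. A count of 0 allows up to 3 counts, which covers counting error only.

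The members, their roles and all gene lists were chosen with earlier results of these data known. Values in each library are given for IFI44L and RSAD2, the sensors and factors, the 2 genes of highest mean CPM in each other role, and the 5 called genes of largest and of smallest fold change, and IFIT2 was added after its values were seen. From each pathway list up to 4 called genes of highest mean CPM are named, or the 2 of highest mean; IFNAR1, JAK1 and the correlated pairs were picked after seeing them. Pseudogenes and clone-type symbols were not named in the ranking, and 1 ranked gene is not reported here. The fits were tested on simulated data. No pair of libraries of the same class agreed within sampling noise (chi-square per degree of freedom of at least 31.6). Same-numbered strongly adherent and unsorted libraries deviated together over all 15 libraries (correlations of 0.28 to 0.75, the highest in title number 6), the other class pairs not in every number. Over the 12 libraries outside title number 6 the same pair ran from 0.038 to 0.53, and no class pair deviated together in every number. Alternatives were DESeq2 1.42.0, DESeq2 size factors, no filter, limma 3.58.1 on the deposited log2 values, no adhesion term, the title number as a block and each library left out. Human gene coordinates and sequences were not used here.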

Additional observations from a re-analysis of the deposited data

Results flagged for a closer look

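In 25 of 75 group and value combinations tested, the lowest library lay farther from the next than Dixon's 95% critical value allows. The combinations share libraries, many of the genes move together, and some were picked for their fold change in title number 6. The usual 1 in 20 by chance is therefore no yardstick here. All 25 are libraries of title number 6, so they restate values given above. IFITM3, flagged in unsorted 6 alone, did not pass the threshold in the title number 6 contrast. In weakly adherent tumours the lowest library was weakly adherent 6 for IFI44L (6.70 CPM), RSAD2 (1.11 CPM), IFIH1 (18.9 CPM), DDX60 (33.2 CPM), PARP12 (40.8 CPM), PARP14 (30.8 CPM), SAMD9 (44.5 CPM), SAMD9L (15.7 CPM), CMPK2 (0.706 CPM), MX2 (6.27 CPM) and MX1 (29.0 CPM), and for the mean of the 49 genes (5.07 log2 CPM). In unsorted tumours it was unsorted 6 for IFI44L (4.73 CPM), RSAD2 (0.0509 CPM), IFIH1 (11.3 CPM), DDX60 (14.2 CPM), IRF7 (29.2 CPM), IRF9 (30.5 CPM), IFITM3 (201.2 CPM), PARP12 (36.5 CPM), IFI27 (75.1 CPM), CMPK2 (0.127 CPM), MX2 (0.763 CPM) and MX1 (4.78 CPM), and for the mean of the 49 genes (4.35 log2 CPM). In the strongly adherent class, with 4 libraries, no value passed the limit.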

How the results depend on the processing

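Of the 49 genes, 39 kept the same result in title number 6 in all 20 other settings, which for IFIT2 was no call. Another 9 lost or gained a call in some. In 1 gene, ISG20, which was called in no setting, the sign changed, to -0.034 without weakly adherent 6. The genes called lower numbered 43 to 45 under DESeq2, DESeq2 size factors, no filter, limma or no adhesion term, and 38 to 45 with a library left out. Over the libraries left out, the genes called in the whole table ran from 1981 (without strongly adherent 6) to 4231, and the members called higher from 0 to 1. Without title number 6, 1 gene was called for number 7-8 and 79 for number 9, none a member; the cause was not tested. In the adhesion classes DESeq2 called 3 genes for weakly against strongly adherent without title number 6, and 0 elsewhere. The median over the 49 genes moved with single libraries: without title number 6 it ran from -0.51 (without strongly adherent 9) to 0.06 (without strongly adherent 5) for weakly against strongly adherent, from -0.02 to 0.14 for weakly adherent against unsorted, and from 0.022 to 0.65 for strongly adherent against unsorted. With all 15 libraries it ran from -0.38 to 0.24, from -0.06 to 0.29 and from -0.12 to 0.51 in the same contrasts.

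With the title number as a block, 0 genes were called in any adhesion contrast, and the medians were -0.05, 0.11 and 0.20 with 15 libraries and -0.25, 0.04 and 0.30 without title number 6, so the block changed no call. The median correlation was 0.75 on the deposited log2 values and 0.86 over 15 libraries. A planned search of promoters for response elements was not run, since no human promoter sequence was used here. Reads per gene limit the lowest values: RSAD2 and CMPK2 had fewer than 40 reads in each library of title number 6.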
